A study of Homo sapiens with 6 samples.

Results

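The 10 circadian clock genes described here are PER1, PER2, PER3, CRY1, CRY2, NR1D1, NR1D2, DBP, BHLHE40 and CLOCK. They were taken by gene symbol from a deposited table of 61806 genes; each symbol matched 1 row, and all 10 passed the filter on low counts that left 16082 genes for testing. RNA was sequenced from A549 cells, a human lung adenocarcinoma line labelled as wild type, after 24 h of seeding and a further 24 h with Japoflavone B or, in the control cells, DMSO. Each group held 3 libraries, the dose is given as 40 without a unit, and nothing says that libraries are from separate cultures, so the p-values reflect only how these libraries vary, which may be technical. The title describes the compound as a PARP1 inhibitor that triggers pyroptosis through p38 and p53; the comparison asks how clock gene mRNA differed between treated and solvent cells. Both groups were harvested at a single time, so a changed level and a shifted phase of a daily rhythm cannot be told apart.

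The circadian clock is a transcriptional feedback loop found in nearly all cell types, cultured cells included. CLOCK pairs with BMAL1 (symbol ARNTL in the table) on E-box sequences and activates the PER and CRY genes, whose proteins return to the nucleus and repress that pair. The same pair activates the nuclear receptor genes NR1D1 and NR1D2 (REV-ERB alpha and beta), which repress ARNTL, the transcription factor gene DBP, which acts through D-boxes, and BHLHE40, a repressor that competes for E-boxes. PER1, NR1D1 and BHLHE40 are also known to answer signals outside the loop, such as stress, hormones and hypoxia.

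The E-box, the element on which CLOCK and BMAL1 act, was looked for in the 250 bases before each RefSeq start (GRCh38.p14, the build of the deposited coordinates without its patch number). All 10 genes were matched, with 14 windows because some have more than 1 start. The E-box CACGTG was found for 3 genes and the variant CACGTT, which is read AACGTG on the other strand, for 5 others. By window, 8 of the 14 held at least 1 of these motifs on either strand, against 10.6% of all 35116 windows of this length; singly they occurred in 6.34% and 4.55% of all windows. By gene, 8 of 10 held at least 1 in any of their windows, against 12.7% of the 27305 genes with a window. Clock genes are known for E-boxes, so these shares are a description. The matches are printed to show where the forms of the E-box stand in the 8 genes that hold one, with 12 bases on each side where the window allows, 5′ to 3′ on the strand of the gene and with the motif in capitals. They lie at chr17:8152560-8152589 (minus strand, PER1), chr3:23946004-23946033 and chr3:23945954-23945983 (plus, NR1D2), chr3:4979187-4979209 (plus, BHLHE40), chr2:238288790-238288819 (minus, PER2), chr12:107093621-107093650 (minus, CRY1), chr11:45847275-45847304 (plus, CRY2), chr17:40100740-40100769 (minus, NR1D1) and chr4:55546102-55546131 (minus, CLOCK).
PER1: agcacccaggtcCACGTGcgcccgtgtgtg
NR1D2, nearer: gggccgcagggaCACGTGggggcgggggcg
NR1D2, farther: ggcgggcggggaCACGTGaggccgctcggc
BHLHE40: tccaaCACGTGagactcatgtga
PER2: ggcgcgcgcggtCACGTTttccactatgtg
CRY1: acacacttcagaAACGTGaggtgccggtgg
CRY2: acacatggtaggAACGTGagggggcgggcc
NR1D1: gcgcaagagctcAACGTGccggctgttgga
CLOCK: tcaccactcgggCACGTTtggagcagcgcc
Some of these matches stood before RefSeq starts of genes that were higher after Japoflavone B (PER1, CRY2, NR1D1, NR1D2 and BHLHE40). Others stood before starts of genes that were lower (PER2, CRY1 and CLOCK). By the deposited coordinates, the matches of PER1, PER2, CRY2, NR1D2 and CLOCK lie within the gene interval, past its start. Those of BHLHE40, CRY1 and NR1D1 lie before it. The windows of PER3 and DBP held neither form. A D-box, searched as TTANGTAA on both strands, was found for PER3 and NR1D2, against 2.48% of all genes with a window. The core of the element bound by ROR and REV-ERB receptors, searched as TNGGTCA, was found for CRY2, NR1D2 and CLOCK, against 9.94%. The cyclic AMP response element TGACGTCA was found for 0 of the 10 genes, against 2.03%. By window these motifs occurred in 1.98%, 8.16% and 1.65% of all windows.

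Of the 10 clock genes, 5 rose after Japoflavone B, 4 fell and 1 did not pass the test (edgeR quasi-likelihood test, adjusted over all genes, threshold 0.05). NR1D1, BHLHE40, PER1, CRY2 and NR1D2 rose, by 6.02-fold to 1.59-fold, and DBP, CLOCK, CRY1 and PER2 fell, by 2.6-fold to 1.27-fold. Among all genes tested 70.0% were called, 34.7% higher and 35.4% lower, so most genes changed. With only 10 genes, chosen with earlier results of these data known, 9 called is not read as an excess. The FPKM of the groups did not overlap for 9 of the 10 genes, against 71.6% of all genes tested. A change of 2-fold or more was found in 4 clock genes that rose and 1 that fell, where 9.67% of all genes rose and 15.0% fell by that much, together 24.7%. The median log2 fold change of the 10 genes was 0.32 against 0.00 for all genes, and the median of its absolute value 1.00 against 0.53.

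**Figure D1:**
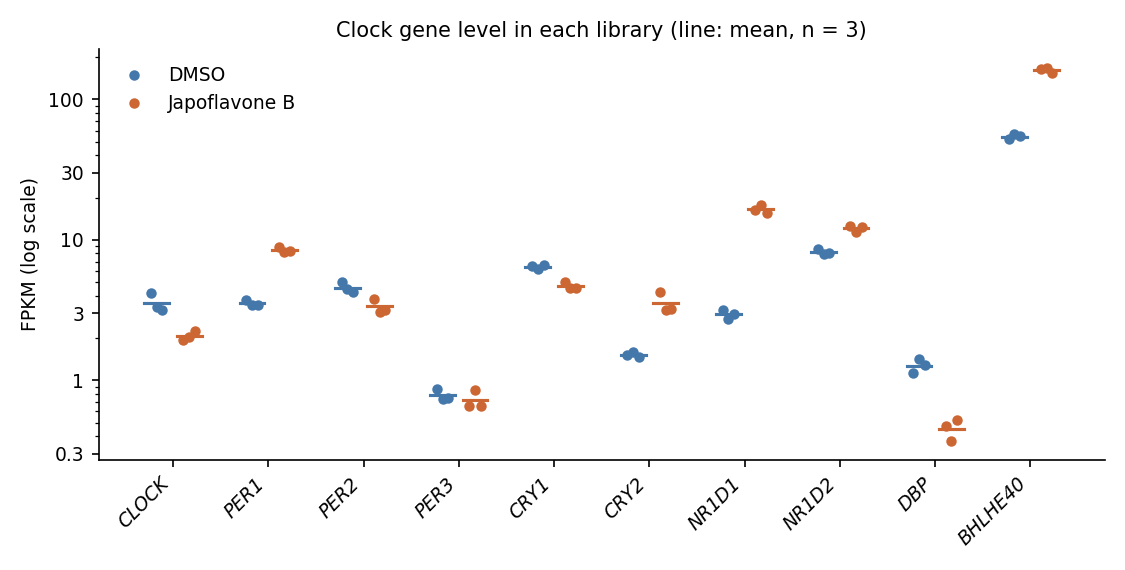
FPKM of each clock gene in each library, on a log axis; points are libraries (DMSO blue, Japoflavone B orange) and lines are means of n = 3. The groups are apart for 9 genes and overlap for PER3, and BHLHE40 stands highest in both groups, at 54.4 and 162 FPKM.

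FPKM here are counts scaled to exonic gene size and to the total count of the library. That size need not match the length of the transcript expressed, so the order of genes by FPKM is approximate. After DMSO the order from the highest was BHLHE40, NR1D2, CRY1, PER2, CLOCK with PER1, NR1D1, CRY2, DBP and PER3. CLOCK (3.14 to 4.20 FPKM) and PER1 (3.45 to 3.75 FPKM) overlapped in DMSO libraries, and CLOCK lay partly within reach of NR1D1 (2.71 to 3.16 FPKM) as well. After Japoflavone B the order was BHLHE40, NR1D1, NR1D2, PER1, CRY1, CRY2, PER2, CLOCK, PER3 and DBP, in which CRY2 (3.17 to 4.22 FPKM) and PER2 (3.08 to 3.81 FPKM) overlapped. NR1D1 moved from seventh place to the second, and DBP from ninth to last.

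The activator CLOCK fell. It had 4.20, 3.34 and 3.14 FPKM in the DMSO libraries and 1.95, 2.04 and 2.23 FPKM in the Japoflavone B libraries. DMSO replicate 1 was the highest of the 6, and every treated library lay below every DMSO library. The log2 fold change was -0.68 ± 0.09 (SE; edgeR adjusted p = 3.04e-07), 1.6-fold lower. CLOCK (ENSG00000134852, chromosome 4, 55427903 to 55546909, minus strand) shares 25495 bases with TMEM165 on the plus strand, which encodes a Golgi membrane protein and fell by 1.42 on the log2 scale. The strand setting of the counting is not given in the sources used here, so reads in shared exons cannot be told apart.

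The partner and the stand-in of CLOCK moved the other way. ARNTL, the gene of BMAL1, had 3.10, 2.65 and 2.12 FPKM after DMSO and 3.83, 3.21 and 3.77 FPKM after Japoflavone B, 1.47-fold higher (log2 0.55 ± 0.11 SE, edgeR adjusted p = 5.78e-05). All treated libraries were above all DMSO libraries, the gap being narrow at 3.10 against 3.21 FPKM. NPAS2, a paralog that can replace CLOCK, had 10.0 FPKM after DMSO and 13.8 after Japoflavone B (1.49-fold higher), and the BMAL1 paralog ARNTL2 had 9.92 and 11.0 FPKM (1.18-fold higher, with overlapping FPKM). Within each library the log2 ratio of CLOCK to NPAS2 went from -1.50 ± 0.19 to -2.74 ± 0.10 (SD, n = 3), and that of CLOCK to ARNTL from 0.45 ± 0.12 to -0.79 ± 0.17. Such ratios do not depend on how libraries are scaled to each other; for both pairs the groups did not overlap. The share of CLOCK in the summed FPKM of CLOCK and NPAS2 was 26.2% ± 2.53 in DMSO libraries and 13.0% ± 0.77 in treated libraries.

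The 3 PER genes, which encode the repressors that set the timing of the loop, moved in different directions. PER1 (ENSG00000179094, chromosome 17, 8140472 to 8156506, minus strand) had 3.75, 3.45 and 3.45 FPKM after DMSO and 8.93, 8.18 and 8.33 FPKM after Japoflavone B. The replicates of each group lay close together, with a wide gap between groups. PER1 was 2.56-fold higher, a log2 fold change of 1.36 ± 0.07 (SE; edgeR adjusted p = 1.46e-15).

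PER2 (ENSG00000132326, chromosome 2, 238244044 to 238290102, minus strand) had 4.97, 4.50 and 4.23 FPKM after DMSO and 3.81, 3.08 and 3.18 FPKM after Japoflavone B. Its treated libraries were all lower, with Japoflavone B replicate 1 nearest to the DMSO libraries. It fell by 0.34 on the log2 scale (SE 0.09; edgeR adjusted p = 0.00165), and by 0.52 as log2(TPM + 1), a scaling that lowers the median gene by 0.21. PER3 (ENSG00000049246, chromosome 1, 7784291 to 7845177, plus strand) had 0.87, 0.74 and 0.75 FPKM after DMSO and 0.66, 0.85 and 0.66 FPKM after Japoflavone B. The groups overlapped, since Japoflavone B replicate 2 stood among the DMSO libraries, and the log2 fold change of -0.03 ± 0.16 did not pass (SE; edgeR adjusted p = 0.891). PER3 had 93 to 148 counts per library, fewer than any other of the 10 genes in each DMSO library, which limits how small a change could be seen.

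The makeup of the PER family was therefore different. PER1 made up 39.1, 39.7 and 40.9% of the summed PER FPKM in the DMSO libraries and 66.6, 67.5 and 68.4% in the Japoflavone B libraries. PER2 went from 51.3% ± 0.939 to 26.7% ± 1.57 (SD, n = 3), so that the leading PER transcript was PER2 in every DMSO library and PER1 in every treated library. The summed PER level was 8.90 ± 0.609 FPKM after DMSO and 12.6 ± 0.728 after Japoflavone B. The log2 ratio of PER1 to PER2 changed by 1.70, or 3.26-fold, and its groups did not overlap. For PER2 to PER3 the ratio moved from 2.54 ± 0.06 to 2.21 ± 0.34 on the log2 scale and the groups overlapped.

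The CRY genes encode the other arm of the repressor complex, and they too went apart. CRY1 (ENSG00000008405, chromosome 12, 106991364 to 107093549, minus strand), the stronger repressor in many cell types, had 6.50, 6.17 and 6.63 FPKM after DMSO and 4.97, 4.52 and 4.55 FPKM after Japoflavone B. All treated libraries were lower, and CRY1 fell by 0.35 on the log2 scale (SE 0.08; edgeR adjusted p = 0.000511), and by 0.55 as log2(TPM + 1). CRY2 (ENSG00000121671, chromosome 11, 45847118 to 45883248, plus strand) had 1.52, 1.58 and 1.47 FPKM after DMSO and 4.22, 3.17 and 3.23 FPKM after Japoflavone B. Japoflavone B replicate 1 was the highest, and the lowest treated library was still above every DMSO library. CRY2 was 2.5-fold higher, a log2 fold change of 1.32 ± 0.12 (SE; edgeR adjusted p = 7.83e-11), which became 0.84 on the log2(FPKM + 1) scale.

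In sum the CRY genes gave about the same level in both groups, 7.96 ± 0.183 FPKM after DMSO and 8.22 ± 0.841 after Japoflavone B, with overlapping libraries. CRY2 took 19.2% ± 1.13 of that sum in DMSO libraries and 42.9% ± 2.63 in treated libraries (SD, n = 3). The log2 ratio of CRY1 to CRY2 went from 2.10, 1.97 and 2.18 to 0.23, 0.51 and 0.49. By FPKM, CRY1 thus remained above CRY2 in all 6 libraries, by a smaller margin in the treated ones. By counts, CRY2 was above CRY1 in Japoflavone B replicate 1, at 519 against 471.

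**Figure D2:**
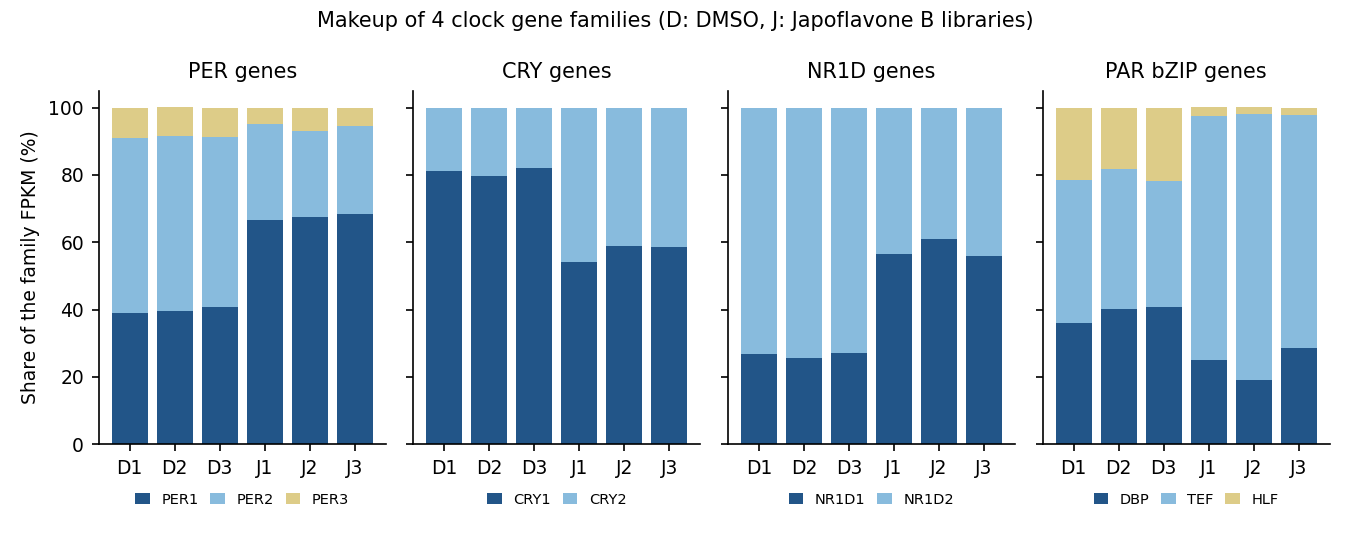
Share of each gene in the summed FPKM of its family, in percent, for the 3 DMSO (D) and 3 Japoflavone B (J) libraries; bars start at 0 and stack to 100%. PER1 rises from 39.9% to 67.5% of PER, CRY2 from 19.2% to 42.9% of CRY and NR1D1 from 26.5% to 57.8% of NR1D, while HLF shrinks from 20.5% to 2.30% of the PAR bZIP genes DBP, TEF and HLF.

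The REV-ERB genes rose, and NR1D1 had the largest change of the 10 clock genes. NR1D1 (ENSG00000126368, chromosome 17, 40092793 to 40100589, minus strand) had 3.16, 2.71 and 2.98 FPKM after DMSO and 16.34, 17.67 and 15.63 FPKM after Japoflavone B. The lowest treated library lay far above the highest DMSO library. NR1D1 was 6.02-fold higher, a log2 fold change of 2.59 ± 0.10 (SE; edgeR adjusted p = 4.87e-19), and 247 of 16082 genes tested had a higher log2 fold change.

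The end of NR1D1 overlaps the thyroid hormone receptor gene THRA, on the opposite strand, over 1075 bases. THRA fell by 0.69 on the log2 scale (SE 0.08; edgeR adjusted p = 4.47e-09), from 6.63 to 3.83 FPKM, so the neighbours moved in opposite directions. NR1D2 (ENSG00000174738, chromosome 3, 23945286 to 23980617, plus strand) had 8.58, 7.89 and 8.06 FPKM after DMSO and 12.63, 11.33 and 12.32 FPKM after Japoflavone B. All treated libraries were higher, and NR1D2 was 1.59-fold higher (log2 0.67 ± 0.07 SE, edgeR adjusted p = 5.67e-10; 0.44 as log2(TPM + 1)). It shares 1306 bases with NKIRAS1, an inhibitor gene of NF-kB signalling on the other strand, which did not pass (log2 0.10 ± 0.10 SE, edgeR adjusted p = 0.388).

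By FPKM, NR1D2 was the higher REV-ERB gene in every DMSO library and NR1D1 in every treated library. By counts, NR1D2 stayed above NR1D1 in the treated libraries too, at 1450, 1033 and 1316 against 852, 731 and 758. The NR1D1 share of their summed FPKM was 26.9, 25.6 and 27.0% after DMSO and 56.4, 60.9 and 55.9% after Japoflavone B. Their sum went from 11.1 ± 0.575 to 28.6 ± 0.598 FPKM (SD, n = 3). The receptors that compete with REV-ERB for the same DNA element were scarce: RORA had 18 to 37 counts per library and 0.103 and 0.08 FPKM in the groups (log2 -0.27 ± 0.32 SE, edgeR adjusted p = 0.473). RORB, with at most 2 counts per library, was left out of the test by the filter. The log2 ratio of RORA to NR1D1 went from -4.85 ± 0.35 to -7.73 ± 0.35. ARNTL and NFIL3, both known targets of REV-ERB repression, were higher in the treated libraries, alongside the higher NR1D1.

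BHLHE40 (ENSG00000134107, chromosome 3, 4979437 to 4985323, plus strand), also called DEC1, had by far the highest level of the 10 genes. It had 52.30, 56.31 and 54.62 FPKM after DMSO and 163.35, 167.53 and 155.34 FPKM after Japoflavone B. The replicates differed little within each group, and 592 genes had a higher log2 fold change than its 1.68 ± 0.05 (SE; edgeR adjusted p = 6.11e-21). Its paralog BHLHE41 was near the floor of detection, with 3 to 9 counts per library, and was not tested. The antisense gene BHLHE40-AS1, which shares 978 bases with BHLHE40, had 68 counts in all after DMSO and 78 after Japoflavone B and did not pass (log2 0.41 ± 0.33 SE, edgeR adjusted p = 0.266).

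DBP (ENSG00000105516, chromosome 19, 48630030 to 48637379, minus strand), an output factor whose level follows the activator pair closely in rhythmic tissues, had the largest fall of the 10 genes. It had 1.13, 1.41 and 1.28 FPKM after DMSO and 0.47, 0.37 and 0.52 FPKM after Japoflavone B. The groups were well apart at counts of 127 to 199 against 38 to 62. DBP was 2.6-fold lower, a log2 fold change of -1.38 ± 0.18 (SE; edgeR adjusted p = 8.54e-08); on the log2(FPKM + 1) scale, which understates low genes, it was -0.64. The overlapping gene SPHK2, a sphingosine kinase gene that shares 688 bases on the other strand, did not pass (log2 -0.12 ± 0.12 SE, edgeR adjusted p = 0.417). CA11, which lies upstream of DBP on the same strand without overlap, fell by 1.37 on the log2 scale.

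Of the relatives of DBP, HLF fell further and TEF did not pass. HLF, a PAR bZIP activator of the same D-box sites, had 96, 94 and 71 counts after DMSO and 7, 4 and 5 after Japoflavone B, 14-fold lower (log2 -3.80 ± 0.32 SE, edgeR adjusted p = 2.65e-11). TEF had 1.32 and 1.39 FPKM (log2 0.16 ± 0.16 SE, edgeR adjusted p = 0.358). NFIL3, the repressor of D-box sites, rose 1.86-fold, from 10.3 to 17.7 FPKM (log2 0.89 ± 0.09 SE, edgeR adjusted p = 4.99e-10). The log2 ratio of DBP to NFIL3 went from -3.06, -2.91 and -3.08 to -5.38, -5.50 and -5.02, a 4.87-fold change with no overlap of groups. The summed FPKM of DBP, TEF and HLF went from 3.26 ± 0.214 to 1.89 ± 0.0651, of which TEF made up 40.5% and then 73.6%.

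**Figure D3:**
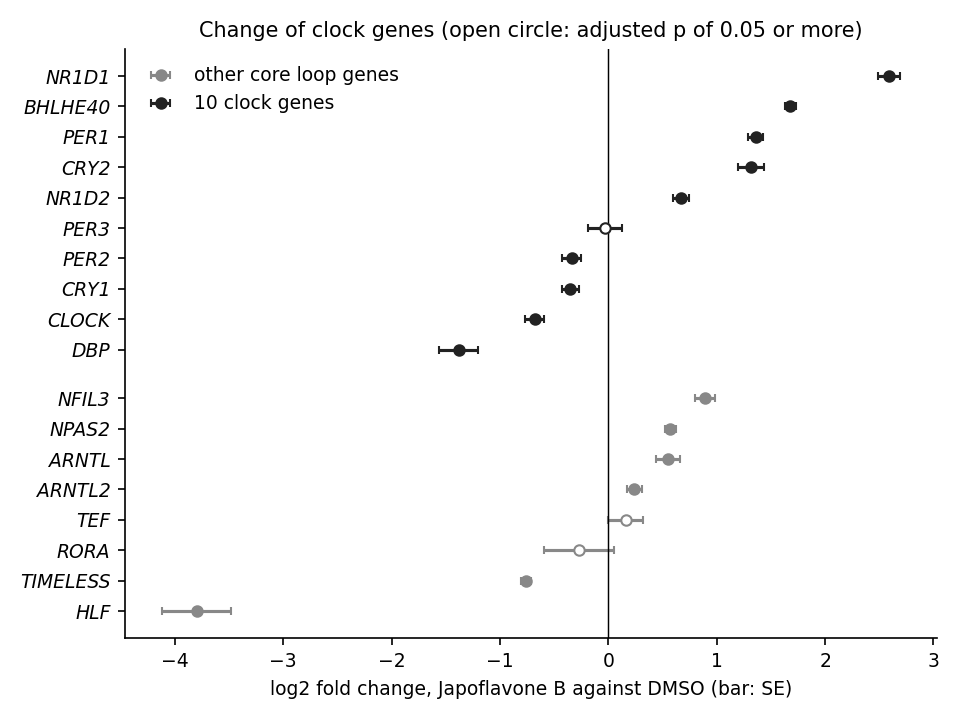
Log2 fold change of Japoflavone B against DMSO for the 10 clock genes (black) and the 8 tested genes of a list of other core loop genes (grey); bars are SE and open circles did not pass the test. NR1D1 (2.59) is the farthest to the right and HLF (-3.80) the farthest to the left.

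In that list of other core loop genes, 12 were in the table and 8 were tested; 4 rose (NFIL3, NPAS2, ARNTL, ARNTL2), 2 fell (HLF, TIMELESS) and 2 did not pass (TEF, RORA). TIMELESS, which in mammals also serves the replication fork, fell from 26.6 to 14.7 FPKM (log2 -0.76 ± 0.05 SE, edgeR adjusted p = 1.11e-12). The repressor gene CIART had 0 to 4 counts per library and was not tested. As log2(TPM + 1), 2 of these genes were called higher rather than 4.

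For 9 of the 10 clock genes an exact permutation test (two-sided, on log2 CPM) gave p = 0.1, the smallest that 3 against 3 libraries allow; for PER3 it gave p = 0.8. The direction and the call of each of the 10 genes held in each of its alternative settings that could be computed, 168 recomputed values in all, except that PER3, never called, changed sign in some. Because the fold changes also use trimmed-mean factors and FPKM do not, the log2 ratio of mean FPKM lies below the log2 fold change given.

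Genes that modify the PER and CRY proteins changed in both directions. Of 22 tested kinases, phosphatases and ubiquitin ligase genes, 8 rose, 8 fell and 6 did not pass, a called share of 72.7% against 70.0% of all genes; as log2(TPM + 1) 5 were higher. CSNK1E, whose protein marks PER for degradation, had 7.07 FPKM after DMSO and 17.1 after Japoflavone B (2.59-fold higher; the table also lists a readthrough gene with it, and shared reads were not resolved). CSNK1A1 was 1.66-fold higher, CSNK2A2, a catalytic subunit of casein kinase, 2.06-fold higher, and FBXW11, which binds phosphorylated PER for ubiquitination, 1.51-fold higher. CSNK1D, the close relative of CSNK1E, had a log2 fold change of 0.44 ± 0.05 (SE) and was picked after its value was seen, as were CSNK2A1 and CSNK2B, of casein kinase too, with smaller changes of 0.22 ± 0.05 and 0.32 ± 0.08.

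Of 20 coregulators and chromatin partners of the clock, 6 rose and 10 fell (median log2 -0.21; 80.0% called). SFPQ, a PER-associated splicing factor, fell from 54.2 to 13.8 FPKM (3.65-fold lower), and EZH2, a histone methyltransferase, was 3.93-fold lower. CHD4, a remodeler of the NuRD complex, was 2.78-fold lower. NCOR1 and HDAC3, through which REV-ERB represses its targets, did not pass, with log2 fold changes of -0.05 ± 0.06 and 0.04 ± 0.06 (SE; chosen after their values were seen).

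Genes linked to signals that act on PER1, some of them induced by those signals, also changed in both directions. Of 16 tested genes of the CREB, salt-inducible kinase and glucocorticoid receptor arm, 8 rose and 3 fell (median log2 0.23; 68.8% called, close to the background of 70.0%); as log2(TPM + 1) 4 were higher and 5 lower. TSC22D3, a glucocorticoid-induced leucine zipper gene, had 1.92, 1.57 and 1.53 FPKM after DMSO and 20.61, 21.19 and 20.55 FPKM after Japoflavone B, 13.3-fold higher (log2 SE 0.08; edgeR adjusted p = 4.34e-24). FKBP5, another glucocorticoid-induced gene, was 4.05-fold lower, so these did not move together. NR4A1, an immediate-early nuclear receptor, was 4.99-fold higher and CRTC2, a coactivator of CREB, 2.09-fold higher. CREB1 itself did not pass (log2 0.12 ± 0.07 SE, edgeR adjusted p = 0.114).

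Of 20 genes often reported as clock outputs, 11 rose and 5 fell (median log2 0.27; 80.0% called). The cell cycle inhibitor gene CDKN1A was 9.78-fold higher. PFKFB3, a regulator of glycolysis, was 2-fold lower and MYC 1.76-fold higher. HLF, TEF, NFIL3 and USP2 stand in more than 1 of these lists. With the list of core loop genes, these lists were drawn up from general knowledge of the clock, but with earlier results of these data known. Their counts are read beside the background and carry no test of their own.

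**Figure D4:**
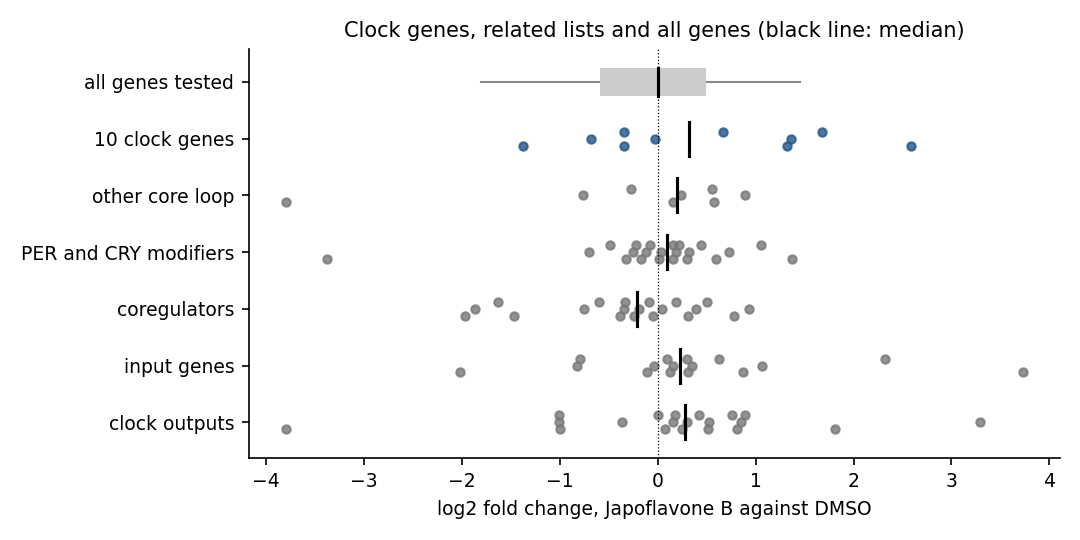
Log2 fold changes of the 10 clock genes and of 5 related lists (points are genes, black lines medians) beside all 16082 genes tested (box from the 25th to the 75th percentile, -0.59 to 0.49; line from the 5th to the 95th, -1.81 to 1.45). NR1D1 and BHLHE40 lie above the 95th percentile of all genes, and no clock gene lies below the 5th.

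Library depth was 15298531 to 21744407 counts, and a clock gene had from 38 to 11385 counts in a library. Mitochondrial genes took 3.97 to 4.70% of counts after DMSO and 8.33 to 8.58% after Japoflavone B. With them left out and the trimmed-mean factors recomputed, the log2 fold changes of the clock genes were the same to 2 decimals. Those factors largely offset such a shift in either fit, so this cannot show whether the mitochondrial shift matters. Of 10 markers of the A549 line 7 had at least 1 FPKM after DMSO, led by ALDH1A1, AKR1B10 and AKR1C2, while EPCAM, NAPSA and SFTPB were below that. Of 9 tested, 7 fell, and their summed level went from 5720 to 6060 FPKM down to 1640 to 1680 FPKM. Leukocyte markers summed to 0.12 to 0.29 FPKM after DMSO and 0.56 to 1.69 after Japoflavone B, with CD3E and TYROBP at 0 counts and PTPRC at 2 in all. CD79A, the 1 leukocyte marker tested, rose 6.24-fold (11 counts in all after DMSO and 60 after Japoflavone B, edgeR adjusted p = 9.82e-05). Endothelial markers summed to at most 0.07 FPKM with VWF, TEK and KDR at 0 counts. Fibroblast markers summed to 4.59 to 5.26 and 0.61 to 0.79 FPKM, nearly all from COL1A1, which epithelial lines can express. The part of these shifts in the clock gene values was not tested, and fewer cells with a transcript and less of it per cell cannot be told apart.

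**Figure D5:**
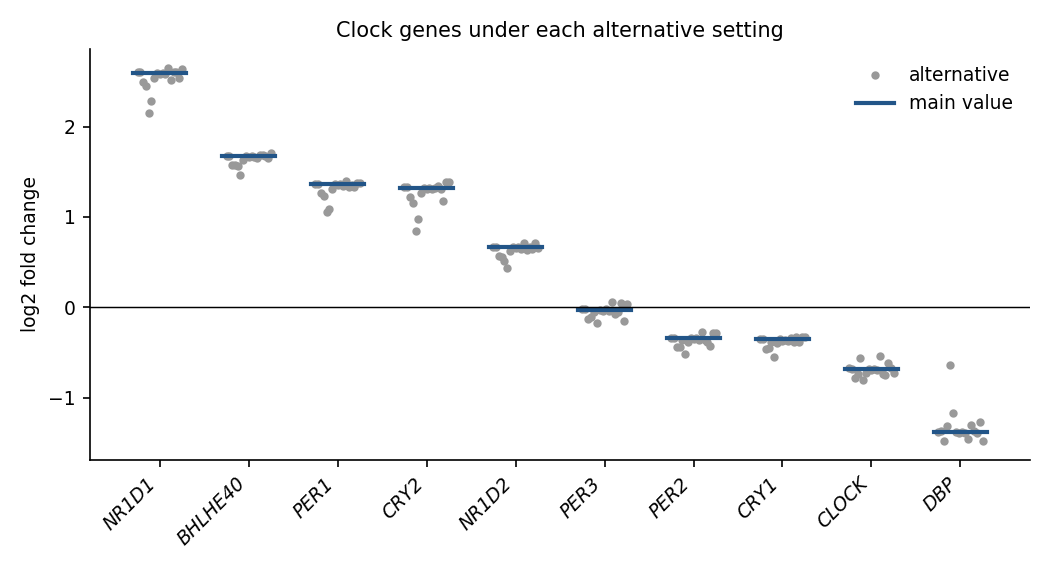
Log2 fold change of each clock gene in the reported fit (blue line) and under each alternative (grey points, up to 17 per gene). The 5 genes that rose stay above 0 and the 4 that fell stay below it under each alternative, and PER3 scatters around 0, from -0.17 to 0.06.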

How the data were processed

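Poly(A) RNA was sequenced from 3 DMSO and 3 Japoflavone B libraries, grouped by the treatment label. Columns headed LE-532 belong to samples labelled Japoflavone B. Per the submitters' processing notes, cutadapt 1.9.1, HISAT2 2.0.1, HTSeq 0.6.1, DESeq2 and GRCh38 were used, without role or order; the annotation release and strand setting are not given in the sources used here. The deposited table holds raw counts per gene, as whole numbers, and FPKM that the authors computed from counts, exonic gene size and column total, since recomputed FPKM differed by at most 0.005.

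Genes were filtered with filterByExpr (minimum count 10, total 15) and fitted with edgeR 4.0.16 in R 4.3.3 (trimmed-mean factors, quasi-likelihood, group as the single term), adjusted by Benjamini-Hochberg over 16082 genes. SE is the log2 fold change divided by the square root of F. The workflow was tested on simulated data. Libraries of 1 group differed by more than sampling noise (chi-square per gene 2.56 to 8.04). Alternatives used limma 3.58.1 and DESeq2 1.42.0; leaving out mitochondrial genes was added after seeing the data.

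The members, gene lists and motifs were chosen with earlier results of these data known; the ROR element core replaced a longer form of that element after the matches of both were seen. All 10 members are named, as are the listed core loop genes, up to 4 genes of each other list by adjusted p with at least 1 FPKM, overlapping genes, and the 3 genes nearest in pattern to the members with the highest and lowest fold change. A few genes that this rule names are not reported here.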

Additional observations from a re-analysis of the deposited data

How the results depend on the processing

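The counts of clock genes that rose (5) and fell (4) were the same in 17 alternatives, except that a filter of at least 2 FPKM removed DBP and PER3 and left 3 that fell. As log2(TPM + 1), which shifts the median gene by -0.21 log2, the core loop genes called higher numbered 2, the PER and CRY modifiers called higher 5, and the input genes 4 higher and 5 lower; the filter of at least 2 FPKM left 1 core loop gene lower. Library totals alone shift the median gene by -0.10 log2. The share of all called genes that were higher was 49.5%, 42.4% with library totals and 35.0% as log2(TPM + 1). Replicate numbers did not pair the libraries (correlations of same-numbered deviations 0.0134, -0.00417 and -0.0446); with the replicate block, 5 clock genes were higher and 4 lower, and of all genes 5502 and 5618, against 5577 and 5686. Leaving out each library in turn gave adjusted p of at most 0.0194 for PER2, the weakest call. Depth limits PER3 and DBP most, and the 3 libraries per group limit every exact test to p = 0.1.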

Other observations

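Genes with a change much like the extremes of the clock set were found by the distance between their 6 log2 CPM values, each as a deviation from the DMSO mean, a description over 6 libraries in 2 groups that says nothing of shared control. Nearest to NR1D1 were ITGA3, an integrin subunit gene (5.85-fold higher, distance 0.213), ISL2, a homeobox gene (6.25-fold higher, distance 0.23), and DUSP5, a phosphatase gene of ERK (6.1-fold higher, distance 0.248). Nearest to DBP were PPM1N (2.68-fold lower, distance 0.194), PRKD1, the gene of a protein kinase D (2.4-fold lower, distance 0.195), and PIGB, an enzyme gene of GPI anchor synthesis (2.49-fold lower, distance 0.199).

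The annotation columns of the deposited table assign more genes to circadian terms, counted here after the other values were seen. Of 28 tested genes that the table assigns to the KEGG circadian rhythm pathway, 8 of them clock genes described above, 12 rose and 9 fell (median log2 0.14; 75% called). Of 128 tested genes under GO terms for circadian rhythm or its regulation, all 10 clock genes included, 47 rose and 59 fell (median log2 -0.04; 82.8% called). Over all genes tested 70.0% were called, 34.7% higher and 35.4% lower. The GO set holds many genes with wider roles, such as TOP2A, TYMS and CDK1 of cell division, and some pseudogenes that inherit the annotation. The KEGG set holds TMEM165, PLPP3 and SSPN, whose intervals overlap or adjoin those of CLOCK, PRKAA2 and BHLHE41. TMEM165 (log2 -1.42) and PLPP3 (log2 -0.73) are among its genes that fell.

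Some related clock genes moved apart in the same libraries and others together. PER1 and PER2, CRY2 and CRY1, and ARNTL and CLOCK each moved in opposite directions. NR1D1 and NR1D2 both rose, as did NPAS2 and ARNTL. ARNTL2 was called higher too, by 1.18-fold with overlapping FPKM. As log2(TPM + 1), only 2 of the core loop genes were called higher. DBP and HLF fell while NR1D1, which like DBP is known as a target of CLOCK and BMAL1, rose 6.02-fold. The reason was not tested.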
